A study of Homo sapiens with 6 samples.

Results

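MYC is a short-lived transcription factor whose protein level is set by ubiquitin ligases, which mark it for the proteasome, and by deubiquitinases, which remove the mark. The 8 genes FBXW7, SKP2, HUWE1, STUB1, FBXO32, USP28, USP36 and USP37 were chosen by symbol as known regulators of MYC protein stability, and all 8 were found among the 23152 genes of the count table and passed the filter on low counts, which left 14467 genes tested. RNA was sequenced from T24 cells, an established human bladder cancer line, carrying either an empty vector (vector, 3 samples) or an RNF112 overexpression construct (oeRNF112, 3 samples), to ask which mRNAs differ when this RING-type ubiquitin ligase is raised. The labels do not say whether the 3 samples of a group were separate cultures, so p-values measure only the spread between these samples, which may be technical, nor whether the cells were transfected transiently or carried a stable insertion. The protocol text deposited with the samples names siRNA transfection, which the group labels do not mention.

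FBXW7, SKP2 and FBXO32 are F-box proteins, the exchangeable subunits that give SCF ligases (a scaffold of SKP1, CUL1 and RBX1) their substrates. FBXW7 binds MYC that has been phosphorylated in its degron, SKP2 marks MYC and also takes part in its transcriptional activity, and FBXO32, known as atrogin-1 in muscle, is induced by FOXO factors. HUWE1 is a very large HECT-type ligase, and STUB1, also called CHIP, is a U-box ligase that works with heat shock chaperones. USP28, USP36 and USP37 are cysteine deubiquitinases that take ubiquitin off MYC, USP28 mainly in the nucleoplasm and USP36 in the nucleolus, each in opposition to an isoform of FBXW7. The measurements here are of mRNA, and none of them reads the MYC protein or its ubiquitination.

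Total counts were between 40029547 and 41259569 per sample, and a count of 0 allows up to 3 reads, for counting error only. RNF112 itself was counted 27, 19 and 24 times in vector and 29753, 36963 and 31712 times in oeRNF112, reads that may include the construct's. The epithelial keratins KRT7, KRT8 and KRT18 were between 738 and 1660 CPM (counts scaled to a common library size with edgeR's TMM factors) in every sample, while KRT20 and UPK2, markers of differentiated urothelium, had at most 2 and 7 counts. GATA3, another of the epithelial markers, had between 117 and 173 counts in every sample. The summed CPM of 8 epithelial markers ran from 3530 to 4549 in vector and from 2712 to 3253 in oeRNF112, and KRT7 and KRT18 fell (log2 fold change -0.48 and -0.51, edgeR adjusted p of 0.0226 and 0.0130), while EPCAM, at no more than 183 counts, rose by 0.84 (edgeR adjusted p = 0.0208). Leukocyte markers (5 genes) summed to at most 4.99 and endothelial markers (3 genes) to at most 0.525 in any sample. The leukocyte marker LYZ had 97 counts in oeRNF112 replicate 1 and at most 8 in every other sample. Fibroblast markers (4 genes) summed to 6.67 up to 9.64 in vector and to 9.89 up to 10.9 in oeRNF112, nearly all of it COL1A1, which was not called, and PDGFRA rose from at most 8 to at least 19 counts (edgeR adjusted p = 0.0194), with DCN and LUM at no more than 3 counts. The part of these markers in the results that follow was not tested. In bulk RNA, fewer cells carrying a transcript cannot be told apart from less of it per cell.

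Of the 8 regulators, 1 differed between the groups at an adjusted p under 0.05, the deubiquitinase USP36, which rose in oeRNF112. Across all genes tested, 18.1% differed by the same edgeR quasi-likelihood test with Benjamini-Hochberg adjustment, 9.97% higher and 8.14% lower (1442 and 1178 genes, or 2020 and 659 when scaled by library totals), so the share among the regulators was not above that of genes at large. The median log2 fold change of the 8 was 0.02, beside 0.003 for all genes tested, with 4 fitted above 0, against 50.4% of all genes, and 4 below. Without vector replicate 1, oeRNF112 replicate 1 or oeRNF112 replicate 3, the genes differing dropped from 2620 to 1061, 1263 and 1446, and USP36 was still the 1 regulator called. At an unadjusted p under 0.05 there were 3 of 8, against 33.1% of all genes, and in 2 of 8 the groups were fully separated in TMM-scaled CPM, against 36.8% of all genes.

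USP36 lies on chromosome 17, at 78787381 to 78841441 on the minus strand of GRCh38 in GENCODE release 29, where no annotated gene overlaps it on the other strand. Promoters of 5 regulators (11 promoters in all) were searched in the RefSeq table used here (GRCh38.p14). FBXO32 was left out of this search, and STUB1 and USP37 had no promoter there. Of those searched, a promoter of USP36 and that of USP28 are shown because they held the CACGTG E-box. This is the sequence best known for binding MYC with its partner MAX. Each sequence runs from 250 bases before to 50 bases after a start site, 5′ to 3′ on the gene's strand. Capitals mark CACGTG and TGACGT, the core of the cyclic AMP response element, which were searched on both strands, do not overlap each other here and were chosen after the expression values had been seen.

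USP36, chr17:78840765-78841064, minus strand: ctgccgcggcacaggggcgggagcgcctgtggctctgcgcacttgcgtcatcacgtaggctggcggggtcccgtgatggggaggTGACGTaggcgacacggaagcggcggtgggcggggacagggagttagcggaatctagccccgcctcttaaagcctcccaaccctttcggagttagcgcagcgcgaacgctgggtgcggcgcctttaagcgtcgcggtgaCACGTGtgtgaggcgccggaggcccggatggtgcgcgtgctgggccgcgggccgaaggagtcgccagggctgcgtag
USP28, chr11:113875523-113875822, minus strand: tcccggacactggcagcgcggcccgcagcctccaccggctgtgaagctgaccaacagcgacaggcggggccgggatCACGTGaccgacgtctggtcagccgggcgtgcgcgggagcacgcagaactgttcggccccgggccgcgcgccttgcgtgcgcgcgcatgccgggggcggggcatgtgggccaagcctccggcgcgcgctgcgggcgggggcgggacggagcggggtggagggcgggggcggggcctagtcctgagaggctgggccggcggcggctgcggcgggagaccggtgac

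The E-box began 27 bases before the start site in USP36 and 174 bases before it in USP28, and a second USP36 start, at chr17:78841390-78841689, held neither motif. Among 35116 promoters of the same length, 7.26% held CACGTG and 7.98% held TGACGT. The 4 promoters of FBXW7, the 1 of SKP2 and the 3 of HUWE1 in the table held neither. A match of letters is a description of the sequence and shows no binding, and its part in the expression values was not tested.

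Counts of USP36 were 1734, 1904 and 1816 with vector, compared with 2752, 2797 and 3233 with oeRNF112. On the TMM scale this was a CPM of 46.2 ± 2.04 (SD, n = 3) in vector and 70.3 ± 5.34 (SD, n = 3) in oeRNF112, and the lowest oeRNF112 sample, at 66.4, lay above the highest vector sample, at 47.6. This is a log2 fold change of 0.61 with a standard error of 0.0918 (edgeR adjusted p = 0.00235), or a 1.52-fold rise with a 95% interval of 1.32 to 1.75. Among all 14467 genes it ranked 373 by p-value. The call held in all 16 alternative analyses, with log2 fold changes from 0.54 to 0.70 and adjusted p-values up to 0.0297, the highest with the replicate number as a block. By Pearson's correlation of log2 CPM over the 6 samples, the genes most like USP36 among 11564 with a mean count of at least 100 were MYEOV (r = 0.998, Spearman's rho = 0.943) and KCNAB2 (r = 0.997, rho = 0.943). With 2 groups of 3 samples such likeness is common, since 406 genes had an r over 0.95, and it is given only as a description.

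**Figure D1:**
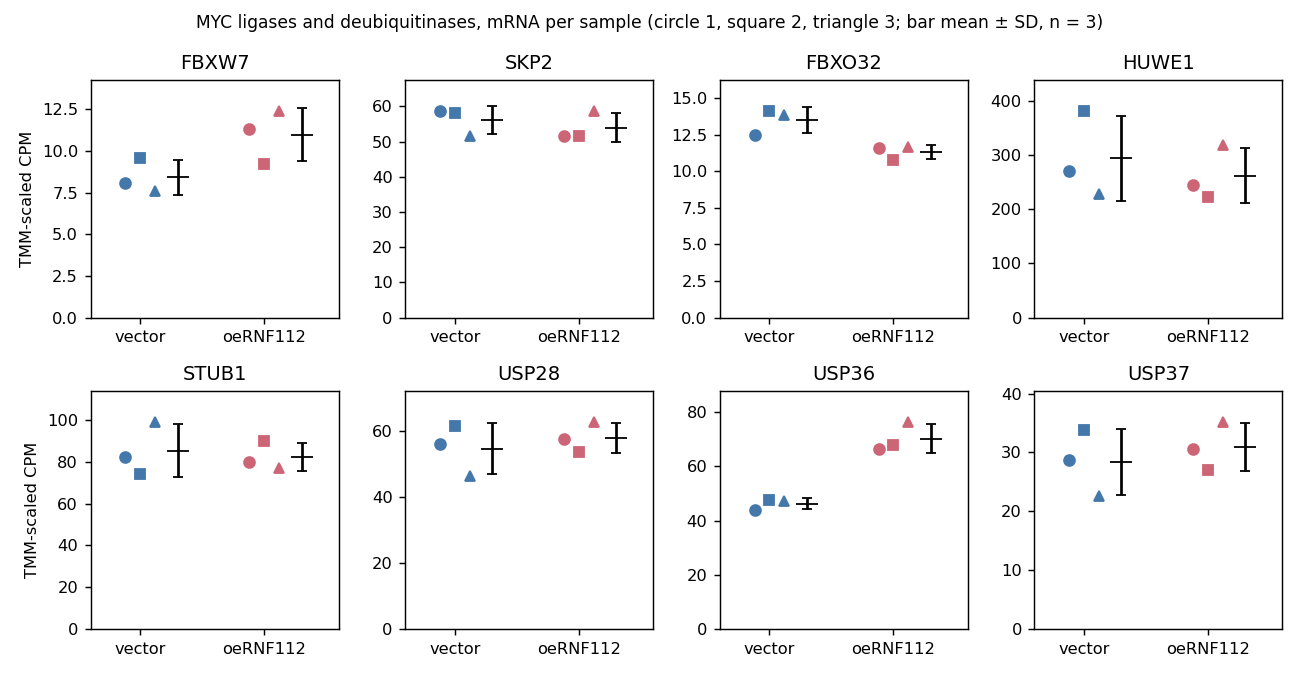
TMM-scaled CPM (vertical axis, from 0) of each MYC regulator in the 3 vector samples (blue) and the 3 oeRNF112 samples (red), with circle, square and triangle for replicates 1, 2 and 3 and a bar for the mean ± SD. USP36 sits at 43.8 to 47.6 in vector and at 66.4 to 76.4 in oeRNF112, FBXO32 is separated by a small margin, and the groups of the other 6 genes overlap.

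The other deubiquitinases, USP28 and USP37, were not called. USP28, on chromosome 11 at 113797874 to 113875570, had 2216, 2458 and 1786 counts in vector and 2389, 2197 and 2652 in oeRNF112. Its groups overlapped, and the log2 fold change was 0.09 with a 95% interval of -0.18 to 0.35 (edgeR adjusted p = 0.647). USP37, on chromosome 2 at 218450251 to 218568361, had 1133, 1350 and 869 counts in vector and 1266, 1107 and 1488 in oeRNF112. It lay at 0.13 with an interval of -0.21 to 0.46 (edgeR adjusted p = 0.600). Both intervals include 0 and end below the fitted value of USP36.

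FBXW7, on chromosome 4 at 152320544 to 152536063, was the ligase with the largest fitted difference, but it did not pass the threshold. It had 320, 383 and 293 counts in vector and 469, 380 and 526 in oeRNF112. The CPM was 8.42 ± 1.03 (SD, n = 3) in vector and 11 ± 1.61 (SD, n = 3) in oeRNF112, and the groups overlapped because oeRNF112 replicate 2, at 9.24, was below vector replicate 2, at 9.58. Its log2 fold change was 0.38 with a standard error of 0.147 and a 95% interval of 0.06 to 0.71 (edgeR adjusted p = 0.0973). Without either of these samples the edgeR adjusted p fell under 0.05, to 0.0414 without vector replicate 2 and 0.0410 without oeRNF112 replicate 2. It rose when any other sample was left out, to 0.246 and 0.217 without vector replicates 1 and 3. Without oeRNF112 replicates 1 and 3 it was 0.234 and 0.294, and with the replicate block it was 0.263. FBXW7 isoforms start from separate promoters and reside in different compartments, and a count per gene adds them together.

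SKP2, on chromosome 5 at 36151989 to 36184319, had 2324, 2319 and 1995 counts in vector and 2133, 2118 and 2485 in oeRNF112, which overlapped throughout. Its log2 fold change of -0.06 had an interval of -0.27 to 0.16 (edgeR adjusted p = 0.703) and changed sign, to 0.04, when samples were scaled by their totals alone (library totals) and not by TMM. FBXO32 had 493, 565 and 535 counts in vector and 479, 443 and 492 in oeRNF112. On the TMM scale its groups did not overlap, at 12.5 or more in vector and 11.6 or less in oeRNF112, whereas on the deposited RPKM scale they did. Its log2 fold change was -0.25 with a standard error of 0.108 (edgeR adjusted p = 0.133), which does not pass the threshold, with an interval of -0.49 to -0.01.

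HUWE1, on chromosome X at 53532096 to 53686729, varied more between samples of one group than between the groups. It had 10697, 15245 and 8821 counts in vector and 10105, 9097 and 13498 in oeRNF112, and vector replicate 2 was the highest sample. The lowest was vector replicate 3 in raw counts but oeRNF112 replicate 2 on the TMM scale, at a CPM of 221 against 229. The log2 fold change was -0.17 with an interval of -0.58 to 0.25 (edgeR adjusted p = 0.568), and without vector replicate 2 it was 0.06. STUB1, on chromosome 16 at 680224 to 682870, had 3265, 2961 and 3821 counts in vector and 3309, 3693 and 3263 in oeRNF112. Its log2 fold change was -0.05 with an interval of -0.31 to 0.21 (edgeR adjusted p = 0.796), and its sign changed with library totals (0.04). JMJD8 overlaps STUB1 on the other strand, as FBXW7-AS1 overlaps FBXW7, VIL1 overlaps USP37 and 2 noncoding genes overlap USP28, and the strand setting of the counting is not given in the sources used here, so reads of these pairs may not be told apart.

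**Figure D2:**
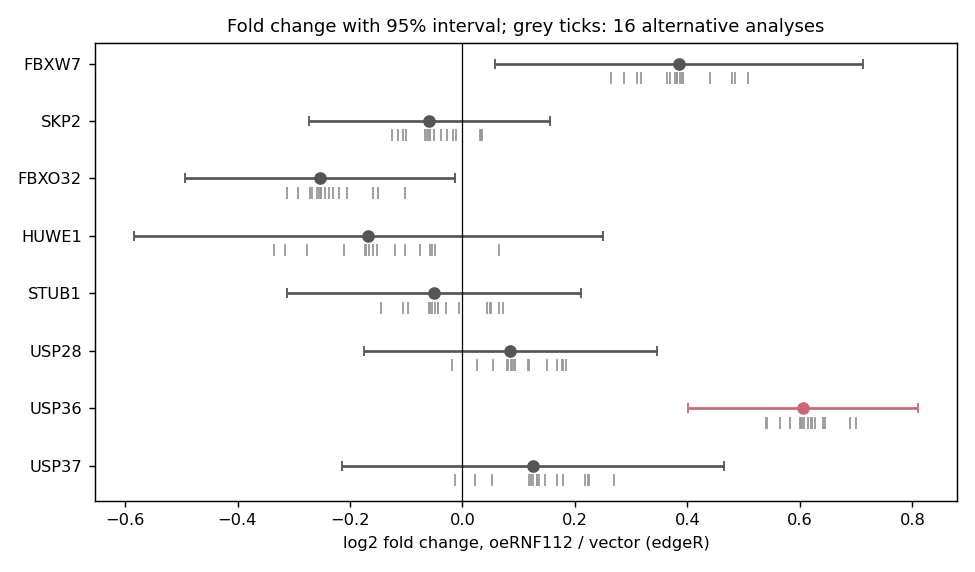
Log2 fold change of oeRNF112 over vector (horizontal axis) from edgeR for each MYC regulator, with its 95% interval, and below it as grey ticks the fitted values from 16 alternative analyses. Only the USP36 interval, from 0.40 to 0.81, belongs to a gene past an adjusted p of 0.05 (red), and the ticks of SKP2, HUWE1, STUB1, USP28 and USP37 fall on both sides of 0.

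The samples also differed by gene length, within each group and, by less, between the groups. Relative to the 6-sample mean, the 2323 tested genes of 8 kb and over had a median log2 CPM of 0.13 in vector replicate 2 and 0.20 in oeRNF112 replicate 3, but of -0.22 in vector replicate 3. The 2747 genes under 2 kb had the opposite order, at -0.09, -0.19 and 0.20 in these samples. Averaged by group, the long genes stood at -0.05 ± 0.18 in vector and 0.06 ± 0.14 in oeRNF112, and the short genes at 0.06 ± 0.15 and -0.06 ± 0.13 (SD, n = 3 each), so part of the length pattern ran along the contrast, with overlapping groups. HUWE1, with a length of 18879 bases in the deposited tables, stood at 0.49, 0.23 and -0.25 in the same 3 samples, and USP37, with 8022 bases, at 0.21, 0.26 and -0.38. STUB1, with 1429 bases, ran the other way, at -0.17, -0.11 and 0.25. USP36, with 7201 bases, was below 0 in all 3 vector samples and above 0 in all 3 oeRNF112 samples.

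When the smooth trend of each sample with gene length was taken out, an analysis added after these values had been seen, 3 of the 8 regulators passed the threshold. USP36 stayed higher, at 0.54 in place of 0.61 (edgeR adjusted p = 0.000533), and HUWE1 and FBXO32 were lower, at -0.28 and -0.31 (edgeR adjusted p of 0.0243 and 0.0379). FBXW7 lay at 0.31 with an edgeR adjusted p of 0.0522. With the trend removed, 4137 of all genes passed, against 2620 without it. With vector replicate 2 and oeRNF112 replicate 3 both left out, USP36 was the 1 regulator called, at 0.56, and 2686 of all genes passed.

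**Figure D3:**
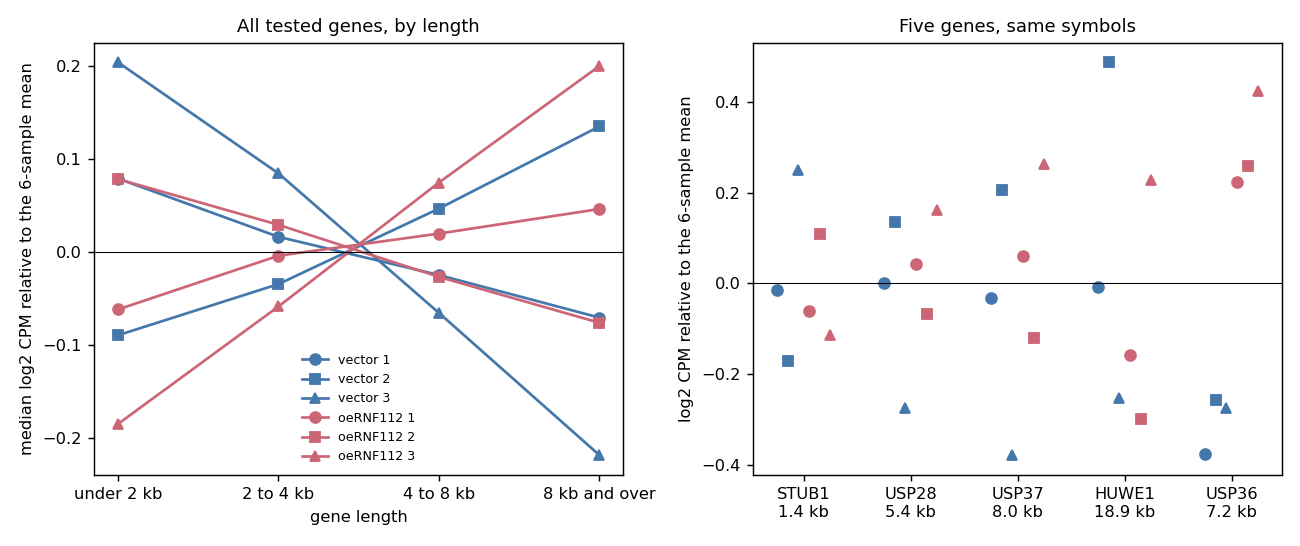
Left, median log2 CPM relative to the 6-sample mean (vertical axis) of all tested genes in 4 classes of gene length, 1 line per sample (blue vector, red oeRNF112). Right, the same quantity for 5 regulators, where HUWE1 reaches 0.49 in vector replicate 2 (blue square), STUB1 has its highest value, 0.25, in vector replicate 3 (blue triangle), and USP36 separates the groups.

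Per gene length, on the deposited RPKM scale, STUB1 was the most abundant regulator and FBXW7 the least in both groups. In vector, STUB1 had an RPKM of 57.6 ± 7.81 (SD, n = 3), followed by HUWE1 at 15.1 ± 4.34, USP28 at 9.74 ± 1.52, SKP2 at 8.61 ± 0.675, USP36 at 6.21 ± 0.350, USP37 at 3.42 ± 0.735, FBXO32 at 1.89 ± 0.148 and FBXW7 at 1.06 ± 0.15 (SD, n = 3 each). In that order the sample ranges of USP28 and SKP2 overlapped, and those of all other neighbours did not. In oeRNF112, USP36 stood at 10.1 ± 0.898 (SD, n = 3), between USP28 at 11 ± 1.06 and SKP2 at 8.82 ± 0.807, and the ranges of HUWE1, USP28, USP36 and SKP2 overlapped from each neighbour to the next. FBXO32 at 1.70 ± 0.0975 and FBXW7 at 1.48 ± 0.240 (SD, n = 3 each) overlapped there as well.

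**Figure D4:**
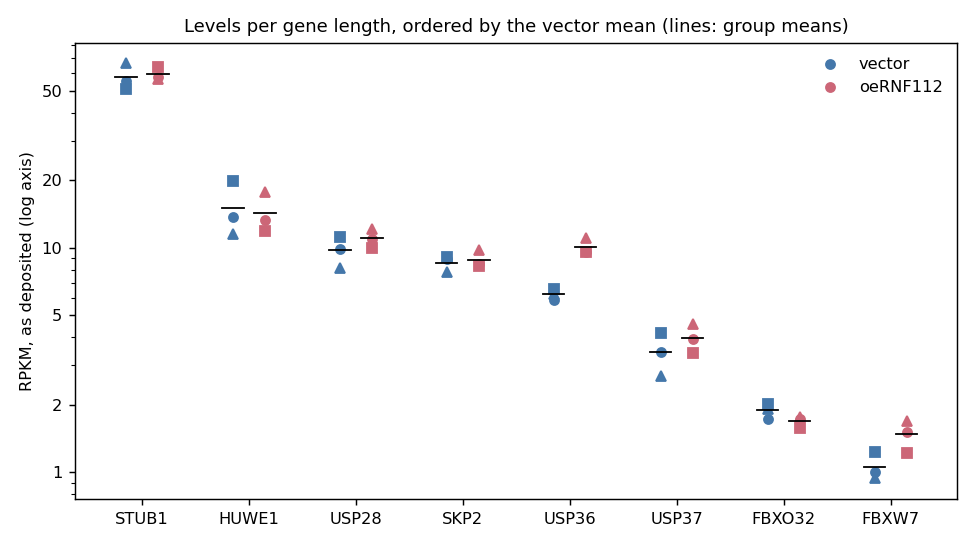
Deposited RPKM (vertical axis, log scale) of each MYC regulator in the vector (blue) and oeRNF112 (red) samples, ordered by the vector mean, with black lines for group means. STUB1 lies above 50 in every sample, and USP36 moves from a mean of 6.21 to 10.1, past SKP2 at 8.82.

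Ratios within a sample are free of the scaling between samples, but not of the differences with gene length described above. The part of length in these ratios was not tested. FBXW7, with 7706 bases, is longer than SKP2, with 6316, and USP28, with 5429. USP36 stood at 0.654, 0.720 and 0.798 times SKP2 with vector, and at 1.13, 1.16 and 1.14 times with oeRNF112, so the groups were separated. Relative to FBXW7, USP28 was 9.83, 9.11 and 8.65 in vector and 7.23, 8.21 and 7.16 in oeRNF112, and SKP2 was 8.86, 7.39 and 8.31 in vector and 5.55, 6.80 and 5.76 in oeRNF112, so both ratios were lower in every oeRNF112 sample. The ratio of USP36 to FBXW7 overlapped between the groups, from 5.32 to 6.63 in vector and from 6.28 to 7.88 in oeRNF112. The ratio of USP37 to FBXW7 was lower in every oeRNF112 sample, and that of USP36 to USP28 was higher. Ratios to FBXW7 share its values and are not independent of each other. Of all single genes, 36.8% had separated groups in TMM-scaled CPM, and no such share was computed for ratios. These RPKM ratios are a description, because 3 samples against 3 cannot go below 0.1 in an exact two-sided permutation test and the pairs were not fixed by the study.

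Among the closest relatives of the 8 regulators, USP25, the paralog of USP28, rose, by 0.45 on the log2 scale with a standard error of 0.102 (edgeR adjusted p = 0.0155) and no overlap between the groups. USP42, related to USP36, was at 0.01 (edgeR adjusted p = 0.962), FBXW11 at 0.15 (0.333) and FBXO25, the paralog of FBXO32, at -0.26 (0.140). The FBXO25 groups did not overlap either, with oeRNF112 lower. Over all genes tested, 36.8% had groups without overlap in TMM-scaled CPM. USP26, related to USP37, had at most 1 count in any sample, and USP29 was not analysed here.

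In the wider USP family, 6 of 44 tested genes rose and 4 fell, and with library totals the split was 7 and 2. Over all genes tested, 9.97% rose and 8.14% fell. USP18, an interferon-induced protease that removes ISG15, had the smallest p-value, at a log2 fold change of 1.31 (edgeR adjusted p = 0.000591). USP5, which takes apart free ubiquitin chains, fell by 0.56 on the log2 scale (edgeR adjusted p = 0.00206), and USP36 ranked 3 by p-value. Of the other deubiquitinases reported to act on MYC, 2 of the 4 tested fell. USP22, the deubiquitinase of the SAGA complex, went from a CPM of 359 ± 25.5 to 264 ± 13.1 (SD, n = 3 each), a log2 fold change of -0.45 (edgeR adjusted p = 0.00840), and USP13 was at -0.53 (edgeR adjusted p = 0.0191). USP7, at 0.02, and USP16, at -0.13, were not called, with library totals 1 of the 2 calls was lost, and USP2 had at most 13 counts.

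Of 57 F-box genes tested, 3 rose and 2 fell, beside 9.97% and 8.14% of all genes tested. With library totals the split was 7 and 0. FBXO2, which recognises glycoproteins, rose by 0.94 on the log2 scale, FBXO45 by 0.55 and FBXO27, a close relative of FBXO2, by 0.48 (edgeR adjusted p of 0.00236, 0.00585 and 0.0110). FBXL19 fell by 0.38 (edgeR adjusted p = 0.0299), as did CCNF, or cyclin F (edgeR adjusted p = 0.0396), which is named outside the rule for named genes. FBXW7 ranked 13 by p-value in this family, FBXO32 ranked 15 and SKP2 ranked 43.

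Of 28 HECT ligases, 4 rose and none fell, and 5 and none with library totals. Over all genes tested, 9.97% rose and 8.14% fell, 18.1% in either direction. HERC5 and HERC6, both interferon-induced, were at 0.44 and 0.47, SMURF2, a brake on TGF-beta signaling, at 0.39, and HECW2 at 1.19 from a low level of 1.36 ± 0.415 CPM in vector to 3.11 ± 0.503 in oeRNF112 (SD, n = 3 each, edgeR adjusted p of 0.00624, 0.0102, 0.0216 and 0.0117). The median of the 28 was 0.17, beside 0.003 for all genes tested, and the part of gene length in it was not tested. The fitted value of HUWE1 was lower than those of all but 1 of them. None of the 6 U-box ligases was called by edgeR or DESeq2. At an unadjusted p under 0.05 there was 1 of 6, PPIL2 (log2 fold change -0.26, edgeR adjusted p = 0.0757), against 33.1% of all genes tested. UBE4B was next at -0.24 (edgeR adjusted p = 0.158).

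**Figure D5:**
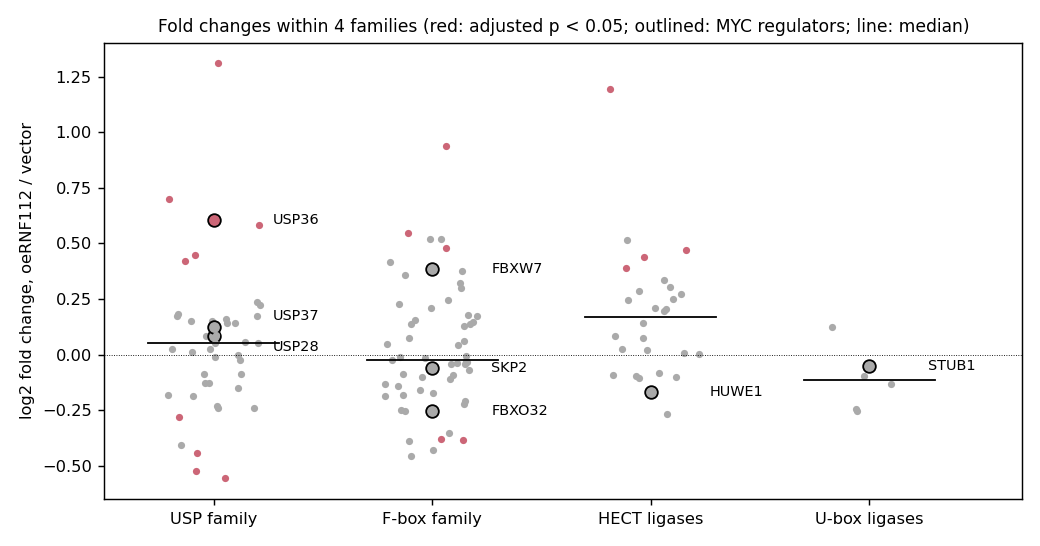
Log2 fold change of oeRNF112 over vector (vertical axis) for the tested genes of the USP, F-box, HECT and U-box families, 1 point per gene, red at an adjusted p under 0.05, outlined and named for the 8 MYC regulators, with a line at each family's median. USP36, at 0.61, is the only outlined point in red, and USP18 at 1.31 and HECW2 at 1.19 are the highest points of their families.

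None of the 10 other ligases reported to act on MYC was called by edgeR, and DESeq2 called 1. At an unadjusted p under 0.05 there were 2 of 10, against 33.1% of all genes tested. FBXO28 was at 0.38 (edgeR adjusted p = 0.0586) and FBXL14 at -0.43 (edgeR adjusted p = 0.0889), and with library totals 1 gene of the list was higher. In the SCF and neddylation machinery, 2 of 18 genes were called, against 18.1% of all genes tested. CUL1, the scaffold shared by FBXW7, SKP2 and FBXO32, fell from a CPM of 100 ± 1.76 to 82.5 ± 3.29 (SD, n = 3 each), a log2 fold change of -0.28 (edgeR adjusted p = 0.0381). UBE2D1, a ubiquitin-conjugating enzyme, rose by 0.49 on the log2 scale (edgeR adjusted p = 0.0339). With library totals, 2 genes of this list were higher and none lower.

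The list of kinases, phosphatases and the isomerase that act on the MYC degron held 5 calls among 19 tested genes, 3 higher and 2 lower, and 3 and 1 with library totals. Over all genes tested, 18.1% were called. PIM1 and PIM3, kinases that can phosphorylate MYC and prolong its life, rose by 0.80 and 0.79 on the log2 scale (edgeR adjusted p of 0.00124 and 0.00140). PIM1 went from a CPM of 14.5 ± 1.32 to 25.2 ± 1.19 and PIM3 from 47.6 ± 5.75 to 82.3 ± 5.25 (SD, n = 3 each). PLK1, a mitotic kinase, fell by 0.46 and PPP2R1A, the scaffold subunit of the phosphatase PP2A, by 0.34 (edgeR adjusted p of 0.00528 and 0.0408). PPP2CB, a catalytic subunit of PP2A, named outside the rule, rose by 0.29 (edgeR adjusted p = 0.0456). GSK3B, the kinase that completes the FBXW7 degron, was at 0.20 (edgeR adjusted p = 0.346).

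Of 15 proliferation genes read beside SKP2, 2 rose and 2 fell, beside 9.97% and 8.14% of all genes tested. With library totals it was 2 and 1. CDKN1A, which encodes the cell cycle inhibitor p21, rose by 0.85 and CCNE1, a G1 cyclin, by 0.43, while the cyclins of later phases CCNB1 and CCNA2 fell by 0.42 and 0.33 on the log2 scale (edgeR adjusted p of 0.000463, 0.0357, 0.0120 and 0.0236). Of 15 substrates of FBXW7 other than MYC, 3 rose and 2 fell at the mRNA level, beside the same shares of all genes. MCL1, an antiapoptotic BCL2 relative, rose by 0.40 and CCNE1, as above, by 0.43, while SREBF1, a regulator of lipid synthesis, fell by 0.53 (edgeR adjusted p of 0.0104, 0.0357 and 0.00757), as did PLK1, and KLF5, named outside the rule, rose by 0.36 (edgeR adjusted p = 0.0383).

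Among 13 tested FOXO factors and atrophy genes read beside FBXO32, GABARAPL1, an autophagy gene, rose by 0.67 and EIF3F, a translation factor that FBXO32 marks in muscle, fell by 0.54 on the log2 scale (edgeR adjusted p of 0.000964 and 0.00739). TRIM63, the partner atrophy ligase MuRF1, had at most 2 counts in any sample. Of 16 chaperone partners of STUB1, HSPA8, the constitutive cytosolic HSP70, was the 1 call, falling by 0.32 on the log2 scale (edgeR adjusted p = 0.0456), and with library totals none was called. Over all genes tested, 18.1% were called in the main analysis.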

How the data were processed

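The authors deposited raw read counts, 1 value per gene, for 3 vector and 3 oeRNF112 samples of T24 cells, and RPKM values, which are these counts divided by gene length and by the sample total. The submitters' processing notes name Trimmomatic 0.36, featureCounts of Subread 1.5.1 and GRCh38. The aligner, annotation and strand setting are not given in the sources used here. For 20637 of 20637 genes with at least 2 values the tables implied 1 length per gene (values within 0.001 of each other), which was used as gene length. No 2 columns were identical.

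Counts were tested with edgeR 4.0.16 in R 4.3.3 (filter on low counts, TMM factors, quasi-likelihood test, Benjamini-Hochberg adjustment over 14467 genes, threshold 0.05). TMM factors ranged from 0.957 to 0.988 in vector and from 1.01 to 1.05 in oeRNF112, without overlap. Values scaled by sample totals, such as RPKM, therefore stand higher in oeRNF112 against vector than TMM-scaled values. The median log2 fold change over all genes was 0.096 with library totals and 0.003 with TMM. Standard errors and 95% intervals come from the same fit. Gene positions are from GENCODE release 29 on GRCh38, not given for FBXO32, and promoters from RefSeq. Scripts were tested on simulated data. Alternatives were DESeq2 1.42.0, its size factors in edgeR, library totals, no filter or at least 10 counts in every sample, the replicate number as a block, leaving out each sample in turn, and limma 3.58.1 on log2(RPKM + 1) or log2(RPKM + 0.1). A fit with length trends removed (loess, span 0.3) and one without vector replicate 2 and oeRNF112 replicate 3 were chosen after seeing the data.

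The regulators and gene lists were chosen with earlier results of these data known. Genes were named by rule: the regulators, RNF112, the closest relatives, up to 4 genes of each list with the smallest p among those called or up to 2 where none was, and the 2 genes most like each called regulator. USP7, USP16, GSK3B, USP2, TRIM63 and the marker genes fall outside this rule and were chosen for their roles.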

Additional observations from a re-analysis of the deposited data

How the results depend on the processing

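Across 16 alternatives, the log2 fold changes of the 8 regulators gave 128 values, of which 113 kept direction and side of the threshold, 4 newly passed it and 11 changed sign. USP36 passed in all 16. The number of regulators called was 1 in the main analysis, 1 or 2 on leaving out single samples, and 3 with the gene length trend removed, which also raised the number of genes differing to 4137. Library totals and limma on log2(RPKM + 1) or log2(RPKM + 0.1) put SKP2 at 0.035, 0.0306 and 0.0337 and STUB1 at 0.0436, 0.0491 and 0.0499 on the log2 scale, and removing the length trend put STUB1 at 0.0653. With each sample left out, HUWE1 ranged from -0.335 to 0.0643, STUB1 from -0.145 to 0.0714, USP28 from -0.0191 to 0.177, USP37 from -0.0132 to 0.269 and USP36 from 0.542 to 0.645. The cause of these shifts was not tested.

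The number of genes differing ranged on leaving out 1 sample from 1061 (vector replicate 1) to 3387 (vector replicate 2), with 1263 without oeRNF112 replicate 1 and 1446 without oeRNF112 replicate 3. With library totals the median over all genes was 0.096 in place of 0.003 (log2), and there were 659 lower genes, against 1178 in the main analysis. The lower genes were 424 and 430 with limma on RPKM. With the replicate block, 876 genes differed (618 higher, 258 lower) and USP36 was the 1 regulator called. Deviations from the group means correlated at -0.116, -0.363 and -0.296 between equally numbered samples. Within a group these deviations depend on each other and carry the length pattern, so they cannot decide whether equally numbered samples were prepared together. The labels give only the number. FBXW7 and FBXO32 had at most 565 counts in any sample, so counting error weighs most on these regulators.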
